A study of Leymus chinensis with 14 samples.

Results

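The circadian clock of leaves was followed through 7 loci of sheepgrass (Leymus chinensis, a polyploid perennial forage grass of the Eurasian steppe). These were chosen by their identifiers and database names, with earlier results of these data known. They are 5 REVEILLE loci (g19999, g16508, g26106, g99491 and g98118) and 2 pseudo-response regulator loci, PRR1 (g16290) and PRR95 (g24770), out of 29560 loci in the deposited table. REVEILLE proteins are single MYB-repeat transcription factors related to LHY and CCA1, and in Arabidopsis their transcripts are mostly highest around dawn. Pseudo-response regulators are mostly repressors that act one after another through the day. PRR1, known in Arabidopsis as TOC1, comes last, around dusk, and represses the morning genes, while PRR95 of rice belongs with the Arabidopsis PRR9 and PRR5 type, whose transcripts rise during the day. In Arabidopsis the REVEILLE 8, 4 and 6 type activates evening genes, PRR1 and PRR5 types among them, and REVEILLE 1 links the clock to auxin. The roles of the sheepgrass loci are taken from these relatives and were not tested here.

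Leaves of 3-week-old plants grown on 1/2MS medium were sequenced as total RNA in 14 libraries of 5 groups. Plants under normal light gave 9 libraries, 3 from the check (ck in the labels, taken to mean no salt was added), 3 from low salt and 3 from high salt. Plants under low light gave 5, of which 3 were from the check and 2 from high salt. Salt concentrations, light levels, the hour of collection and the number of plants behind a library are not stated in the labels. Each group was collected at a single age, so levels and not rhythms were compared. A difference between groups in the hour of collection cannot be told apart from one in light or salt here. The p-values measure only the spread between libraries, which may be technical.

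The table gives an abundance per assembled transcript in a unit the authors do not name, of a kind with TPM or FPKM, and transcripts were summed to loci here. No read counts are given, so depth is unknown. Summed abundance ran from 470162 to 581690 per library, and replicates correlated at 0.846 to 0.953 across loci on the log scale. Leaf markers (Rubisco small chain, Rubisco activase and chlorophyll a-b binding proteins, 60 loci) were abundant in every group, with sums of 60700 to 90060 in the check against 40950 to 45700 in the low-light check. Of the 50 such loci tested, 6 fell at low light and none rose, against 4.27% of all tested loci called lower and 10.7% called higher by limma. Low salt gave sums of 39190 to 63130, high salt of 39350 to 59870, and high salt under low light of 30460 and 57430. Between 1 and 3 of the 60 were at 0 throughout a group. Histone loci (42, for dividing cells) summed to 934 to 1061 in the check and 878 to 1713 in the low-light check, and loci with a fungal best hit (423 by genus name) to 244 to 267 and 205 to 680. The fungal sum was 701 and 986 with high salt at low light. The 4 phloem and vessel loci summed to 4.75 to 9.29 in the check, 1.39 to 52.7 in the low-light check and up to 376 with high salt at normal light. No locus carried the name of the Casparian strip membrane proteins, which mark root endodermis. The part of these shifts in the results below was not tested, and in bulk leaves fewer cells of a type and less RNA per cell cannot be told apart.

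All 7 loci carried the domain or name of their family in at least 1 transcript. Loci g19999 and g16508 share 1 best protein hit, a REVEILLE 1-like protein of Aegilops tauschii (91.16% and 91.68% identity for the transcripts of g19999, 94.22% for g16508). Whether these loci are near copies of each other was not tested, and if so their reads may have been split between them. Locus g26106 has a MYB-related protein of wheat as its best hit (85.36% identity) and REVEILLE 2 in Swiss-Prot. Loci g99491 and g98118 both have REVEILLE 6 as their Swiss-Prot hit, at 66.42% and 54.24% identity. A Myb-like DNA-binding domain was annotated on 1 transcript of each REVEILLE locus. PRR1 (2 transcripts, 94.96% and 95.16% identity to wheat proteins) and PRR95 (3 transcripts, 85.13% to 86.78% identity to Aegilops tauschii) carried the CCT motif, by which such proteins act in the nucleus. In 1 of the 3 PRR95 transcripts the annotated domain was the response regulator receiver.

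The REVEILLE 1-like locus g19999 was highest in the check and lowest at low light. In the check it stood at 7.85, 19.2 and 22.9 (replicates 1, 2 and 3, deposited units). The low-light check gave 0.839, 0.688 and 0.208. High salt at normal light gave 2.18, 5.12 and 10.97, low salt 3.69, 12.8 and 1.13. In the 2 low-light libraries with high salt it was 0.69 and 0.631. Every low-light library was below 1 and below every normal-light library. In the order of group means, the check came first, then high and low salt, each overlapping the group above it, and the 2 low-light groups came last, overlapping each other.

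The REVEILLE 6-like loci also ranked lowest at low light. Locus g99491 was nearly constant in the check, at 13.8, 13.8 and 14, and stood at 6.03, 5.17 and 2.71 in the low-light check. It was 10.5, 7.08 and 13.1 with low salt, 8.62, 5.63 and 12.3 with high salt, and 4.93 and 7.36 with high salt at low light. Its check libraries were above all others, while neighbouring groups below the check overlapped in turn. The second, g98118, stood at 3.18, 2.65 and 2.94 in the check and at 1.03, 0.303 and 0.106 in the low-light check. High salt at normal light gave 4.11, 2.85 and 9.88, low salt 2.40, 4.21 and 1.72, and high salt at low light 0.695 and 1.23. All 5 low-light libraries were below all 9 at normal light, and the 3 normal-light groups overlapped. For g98118 and g26106 the highest library of all 14 had high salt at normal light.

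The REVEILLE 2-like locus g26106 was scarce throughout. It stood at 0.868, 1.47 and 1.48 in the check, at 0.606, 1.32 and 0.609 with low salt and at 0.39, 2.77 and 0.704 with high salt. In the low-light check it stood at 0.303, 0.0369 and 0.000724, and with high salt at low light at 0.0939 and 0.163. No low-light library reached any normal-light library, and the 3 normal-light groups overlapped. Both g26106 and g19999 passed the filter on low values (at least 1 in at least 2 libraries) through normal-light libraries only. All 7 loci passed it.

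PRR1, the dusk repressor, ran the other way. It stood at 3.78, 3.26 and 7.96 in the check and at 15.5, 28.5 and 13.3 in the low-light check. With high salt at normal light it was 6.07, 9.32 and 8.15, with low salt 6.19, 12.5 and 4.51, and with high salt at low light 29.2 and 10.9. The low-light check lay above every check and high-salt library at normal light and above the highest low-salt library. The other low-light group overlapped low salt, and the 3 normal-light groups overlapped in turn. PRR95, the day-phase regulator, was lowest in the check, at 44.8, 37.7 and 33.4. It was 56.1, 60.7 and 130.8 with low salt, 67.7, 49.8 and 45.3 with high salt, 117.7, 62.1 and 60.8 in the low-light check, and 95.1 and 79.0 with high salt at low light. In deposited units all 11 libraries of the other groups were above the 3 check libraries. Those 4 groups overlapped one another in the order of their means. The check libraries had the smallest median-of-ratios scaling factors (0.751, 0.869 and 0.848). Dividing by such factors raises the check relative to the others, and whether the PRR95 groups stay apart after that was not tested.

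**Figure D1:**
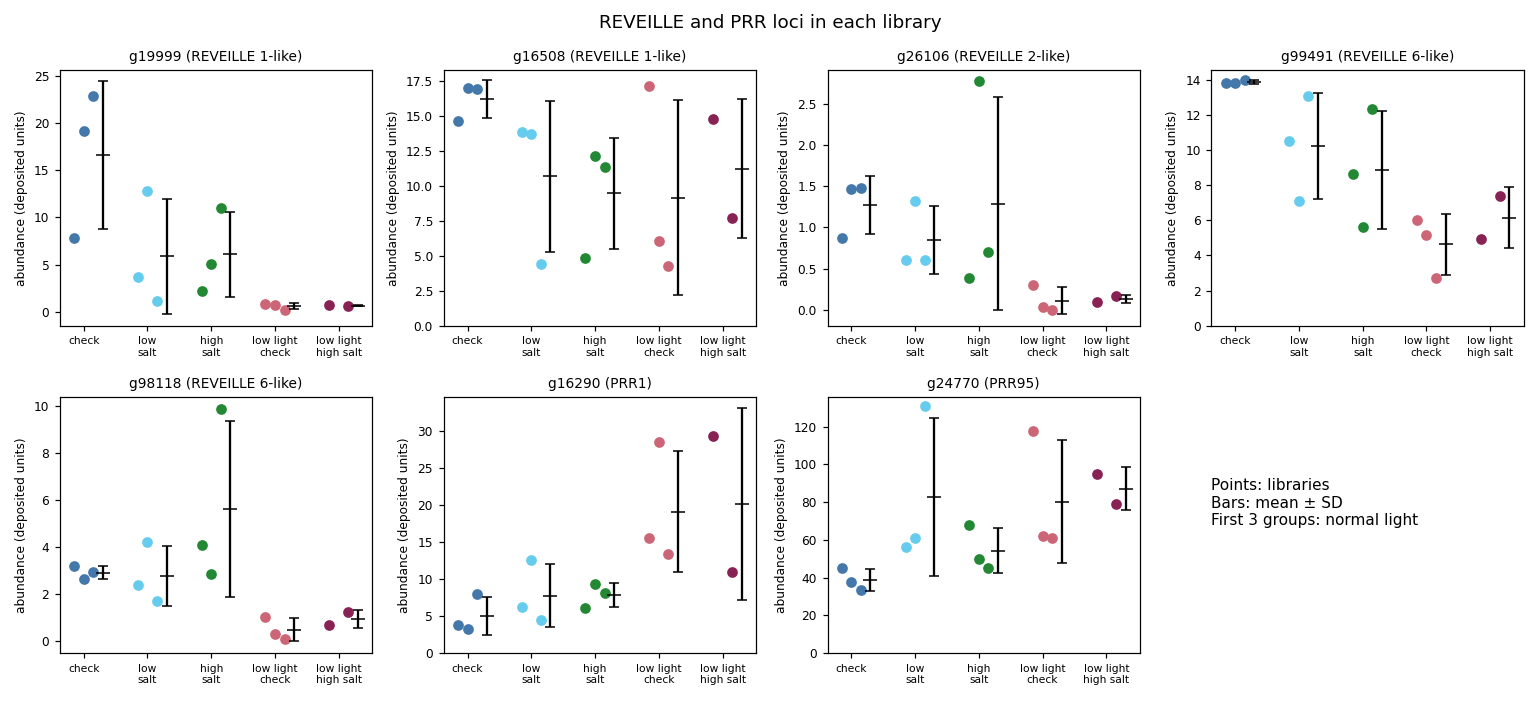
Abundance of each locus in deposited units (vertical axes, each on its own scale) by group, with 1 point per library and the mean ± SD beside it (n = 3, or 2 for high salt at low light). For 4 of the 5 REVEILLE loci the low-light check lies below the check without overlap, and for both PRR loci above it.

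Low light without added salt was compared with the check to see how the clock loci stand when light is scarce. Of the 5 REVEILLE loci 3 fell and none rose, against 4.27% of all 20567 tested loci called lower by limma (Benjamini-Hochberg adjusted p under 0.05). Of the 2 PRR loci PRR1 rose, against 10.7% of all loci called higher, and 14.9% were called in either direction. The change in g19999 was -3.38 on the log2(value + 1) scale (SE 0.65, limma adjusted p = 0.0066). This locus passed the filter on low values through normal-light libraries only, which favours a lower value at low light. Without the filter its limma adjusted p was 0.011. Locus g99491 changed by -1.45 (SE 0.32, limma adjusted p = 0.013) and g98118 by -1.45 (SE 0.40, limma adjusted p = 0.032). PRR1 changed by 1.75 (SE 0.45, limma adjusted p = 0.024). Not called were g26106 at -1.03 (SE 0.36, limma adjusted p = 0.072), PRR95 at 0.98 (SE 0.34, limma adjusted p = 0.072) and g16508 at -0.97 (SE 0.52, limma adjusted p = 0.22). The pseudocount of 1 understates changes of scarce loci such as g26106, whose difference was -2.92 with a pseudocount of 0.1 (limma adjusted p = 0.028, range over its alternatives 0.028 to 0.18). In deposited units groups did not overlap for 4 REVEILLE loci, all lower, and for both PRR loci, both higher. Over all tested loci the groups did not overlap in the lower direction for 8.24% and in the higher direction for 26.3%.

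The median of all tested loci was 0.35 higher at low light as deposited, and 0.04 after median-of-ratios scaling. Of all tested loci 2196 were called higher and 878 lower as deposited, against 740 higher and 1438 lower after that scaling. Relative to that median, g19999 stood at -3.73, g99491 and g98118 each at -1.80, PRR1 at 1.41 and PRR95 at 0.63. After scaling, and after quantile normalization, the 3 REVEILLE calls remained, while PRR1 stood at 1.34 and 1.36 and lost its call (limma adjusted p = 0.086 and 0.083, range over its alternatives 0.014 to 0.093). PRR95 stood at 0.51 after median-of-ratios scaling and at 0.70 after quantile normalization (limma adjusted p = 0.35 and 0.25). It gained a call with library totals, at 1.16 (limma adjusted p = 0.043, range 0.035 to 0.35). It also gained one with the filter on a mean of at least 5, at 0.98 (limma adjusted p = 0.046). The calls of g98118 and PRR1 depended on single libraries, and that of g98118 was also lost when the compared groups were fitted alone (limma adjusted p = 0.05). Without check replicate 1 the adjusted p from limma was 0.1 for g98118 and 0.093 for PRR1. Without check replicate 2 it was 0.055 and 0.067, and without low-light check replicate 2 it was 0.068 and 0.069. Leaving out check replicate 3 or low-light check replicate 3 ended the call of g98118 alone (limma adjusted p = 0.086 and 0.091). Without high-salt replicate 2, g26106 was called (limma adjusted p = 0.029), and without low-salt replicate 3, PRR95 (limma adjusted p = 0.035). The call of g19999 held without each of the 14 libraries.

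**Figure D2:**
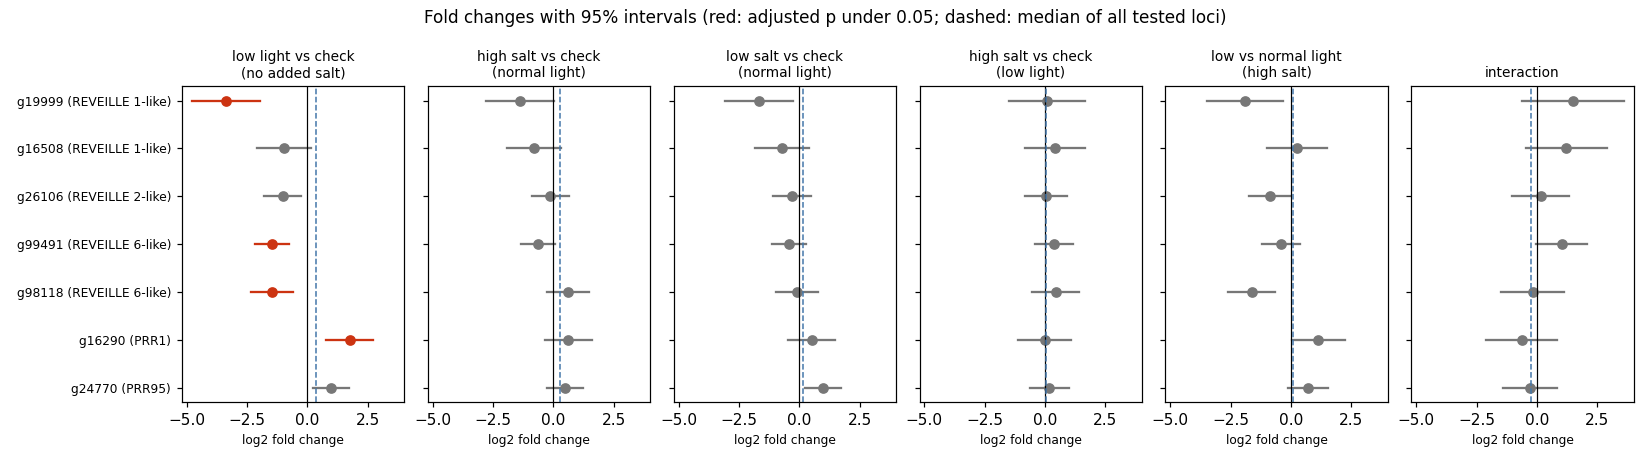
Log2 fold change (horizontal axes) of each locus in the 6 comparisons, with its 95% interval from limma, in red where the adjusted p was under 0.05, and the median of all tested loci as a dashed line. Calls appear in the first panel alone, from -3.38 for g19999 to 1.75 for PRR1.

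Locus g16508 holds transcripts that behaved differently. It stood at 14.7, 17 and 16.95 in the check and at 17.1, 6.04 and 4.30 in the low-light check, so the summed locus overlapped between these groups. Transcript i0, the one with the REVEILLE 1-like hit, stood at 5.69, 10.4 and 11.4 in the check and at 0.907, 0.279 and 0.249 in the low-light check. Transcript i1, with no database hit, stood at 8.98, 6.62 and 5.50 and at 16.2, 5.77 and 4.05. Tested as a transcript, i0 fell by 2.76 (SE 0.49, limma adjusted p = 0.005 over 48562 transcripts), while i1 changed by 0.08 (SE 0.49, limma adjusted p = 0.93). Across the 14 libraries i0 made up 2.11% to 67.5% of the locus. With only the annotated transcript in the locus table, g16508 was called lower at low light (-2.76, SE 0.51, limma adjusted p = 0.0054, range over its alternatives 0.0054 to 0.93), in a setting chosen after the transcripts were seen. In the salt groups at normal light i0 stood at 2.15, 4.25 and 0.587 with low salt and at 0.553, 1.76 and 4.50 with high salt. All 6 of these values are below the 3 check values. The fold with high salt was -1.78 (SE 0.49, limma adjusted p = 0.069).

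In g19999 transcript i0 made up 52.7% to 59.4% of the locus and changed by -2.85 at low light, and i1 by -2.64 (limma adjusted p = 0.0079 and 0.0082). In PRR1 transcript i0 made up 59.5% to 63% of the locus and rose by 1.61, and i1 rose by 1.55 (limma adjusted p = 0.027 and 0.021). The 3 transcripts of PRR95 differed by 0.89, 0.92 and 1.02 (limma adjusted p = 0.075, 0.062 and 0.14). The shares were less even in g98118, where the annotated transcript i0 made up 49.7% to 94.8% of the locus. It fell by 1.21 at low light (limma adjusted p = 0.031), and i1, whose best hit is a hypothetical protein of rice, stood at -0.71 (limma adjusted p = 0.16). In high-salt replicate 1 at normal light i0 stood at 2.04 and i1 at 2.06, against 2.43 and 0.749 in check replicate 1. The labels do not say how reads were divided between such transcripts.

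**Figure D3:**
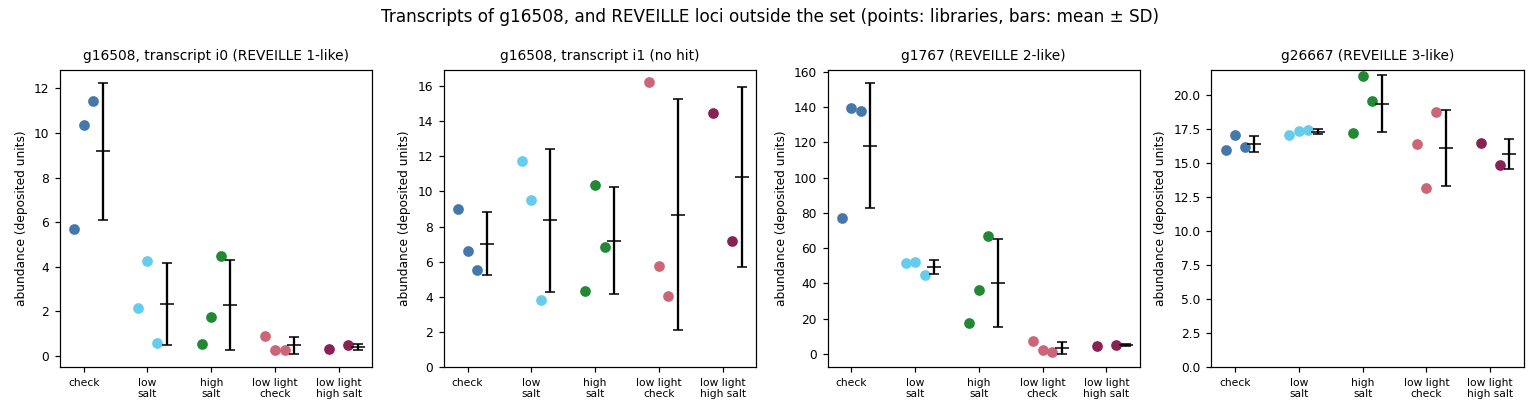
Abundance in deposited units (vertical axes) by group for both transcripts of g16508 and for REVEILLE loci g1767 and g26667, with 1 point per library and the mean ± SD. Transcript i0 stays below 1 in all 5 low-light libraries, as transcript i1 does in none.

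For high salt at normal light the comparison used the same 3 check libraries. None of the 7 loci was called by limma or at an unadjusted p under 0.05, against 3.94% of all loci called in either direction (2.98% higher and 0.963% lower). The 5 REVEILLE loci ranged from -1.40 (g19999, SE 0.65, limma adjusted p = 0.21) to 0.61 (g98118, SE 0.40, limma adjusted p = 0.38). The 95% interval for g19999 reached from -2.81 to 0.01. PRR1 stood at 0.62 (SE 0.45) and PRR95 at 0.47 (SE 0.34), both with a limma adjusted p of 0.43. In deposited units the high-salt libraries lay wholly below the check for g16508 and g99491 and wholly above it for PRR95. Over all loci 6.52% were lower and 23.8% higher without overlap. With median-of-ratios scaling the PRR95 difference was 0.09 (limma adjusted p = 0.93). The median of all loci was 0.29 as deposited, and 0.03 after scaling.

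Low salt gave no call among the 7 loci either, against 0.0681% of all loci. At an unadjusted p under 0.05 there were 2, g19999 at -1.65 (SE 0.65, limma adjusted p = 0.33) and PRR95 at 0.98 (SE 0.34, limma adjusted p = 0.28). The PRR95 difference was as large as at low light, where it was 0.98 too, and rested in part on low-salt replicate 3. Without that library it was 0.59. The low-light, high-salt and low-salt comparisons share the 3 check libraries, so their values are not independent.

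Among low-light plants high salt gave no call, and no unadjusted p was under 0.05, against 0.574% of all loci called by limma. The 7 differences ran from -0.01 (PRR1) to 0.44 (g98118), with SE 0.36 to 0.72, and every one of the 7 overlapped between the groups, while 7.33% of all loci were lower and 13.1% higher without overlap. The 95% interval was -1.48 to 1.67 for g19999 and -1.11 to 1.09 for PRR1, from 3 and 2 libraries.

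Low light was also compared with normal light among high-salt plants. No clock locus was called by limma, against 0.656% of all loci, and 4 had an unadjusted p under 0.05. These were g98118 at -1.62 (SE 0.45, limma adjusted p = 0.16), g19999 at -1.89 (SE 0.72, limma adjusted p = 0.36), g26106 at -0.88 (SE 0.40, limma adjusted p = 0.47) and PRR1 at 1.12 (SE 0.50, limma adjusted p = 0.47). Those 3 REVEILLE loci were lower, and both PRR loci higher, without overlap between groups, against 9.77% and 18.1% of all loci. The interaction, which asks whether high salt acts differently at low light, gave no call among the 7, no unadjusted p under 0.05, and 0.209% called over all loci. Its values were 1.49 for g19999 (SE 0.97, limma adjusted p = 0.49), 1.02 for g99491 (SE 0.49, limma adjusted p = 0.36) and -0.63 for PRR1 (SE 0.68, limma adjusted p = 0.69). The median of all loci was -0.24 in the interaction.

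Morning REVEILLE levels were set against evening PRR1 and, separately, against day-phase PRR95 within each library. The measure was the mean log2(value + 1) of the 5 REVEILLE loci minus that of the PRR locus. Such a difference does not depend on a scaling factor per library, apart from the pseudocount. It is a description over chosen loci and carries no test. Against PRR1, the difference was 0.54, 1.02 and 0.02 in the check, -0.43, -0.90 and -0.57 with low salt, and -0.76, -0.78 and -0.16 with high salt. In the low-light check it was -2.19, -3.56 and -2.90, and with high salt at low light -3.28 and -1.92. The check libraries were thus above all others, both salt groups lay together between, and the 5 low-light libraries were lowest without overlap. From the check to the low-light check the mean went from 0.53 ± 0.50 to -2.88 ± 0.68 (SD, n = 3 each).

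Against PRR95 the groups stood closer. The difference was -2.73, -2.16 and -1.92 in the check and -5.04, -4.65 and -5.01 in the low-light check. With low salt it was -3.42, -3.09 and -5.15, with high salt -4.04, -3.08 and -2.50, and with high salt at low light -4.95 and -4.67. Low-salt replicate 3 was the lowest of all 14 libraries, while high-salt replicate 3 was above check replicate 1. Taken singly against PRR1, g19999 moved farthest between the checks, from 1.52 ± 0.68 to -3.62 ± 0.48 (SD, n = 3). The summed locus g16508, with its unannotated transcript, moved least, from 1.60 ± 0.55 to -1.12 ± 1.13 (SD, n = 3).

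**Figure D4:**
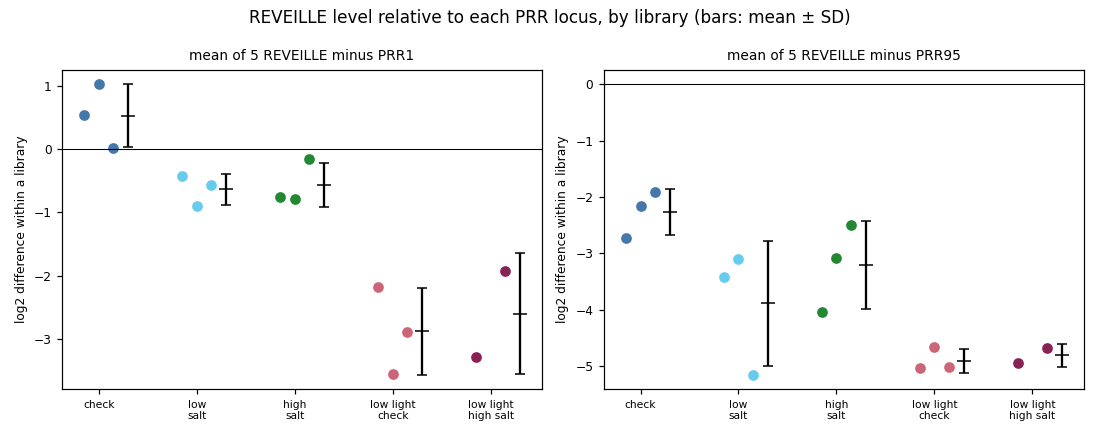
Mean log2(value + 1) of the 5 REVEILLE loci minus PRR1 (left) and minus PRR95 (right) in each library, by group, with mean ± SD beside the points. Against PRR1 the check libraries lie between 0.02 and 1.02 and the 5 low-light libraries between -3.56 and -1.92.

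Libraries within a group differed for these loci. In the check, replicate 1 held the lowest value of g19999, g16508, g26106 and g99491 and the highest of g98118 and PRR95. The highest check library was 2.91 times the lowest for g19999 but 1.01 times for g99491. With high salt, replicate 1 was lowest for g19999, g16508, g26106 and PRR1 and highest for PRR95, with 5.04 times between libraries for g19999. With low salt, replicate 3 was lowest for g19999, g16508, g98118 and PRR1 and highest for g99491 and PRR95, with 11.3 times between libraries for g19999. In the low-light check, replicate 3 was lowest for all 7 loci. No label sets these libraries apart from the others of their groups.

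The remaining clock loci were taken from lists by role, matched by text in the annotation. The list of LHY, CCA1 and REVEILLE names held 8 loci, the 5 above and 3 more. None of the 8 was named LHY or CCA1. At low light 4 of the 8 fell and none rose, against 4.27% and 10.7% of all loci, with a median of -1.24 against 0.35. The 4 are the 3 described above and REVEILLE 2-like g1767. Locus g1767 stood at 77.4, 139.4 and 138 in the check, and at 7.06, 2.44 and 0.843 in the low-light check. Salt at normal light left it at 51.4, 52.2 and 45.0 (low) and 17.7, 36.4 and 67.0 (high), and high salt at low light at 4.56 and 5.29. All 5 low-light libraries were thus below all 9 at normal light, and all 6 salt libraries below the check. Its change was -4.96 at low light (SE 0.52, limma adjusted p = 8.3e-04), and -1.67 with high salt (SE 0.52, limma adjusted p = 0.087). REVEILLE 3-like g26667, by contrast, stood at 15.95, 17.1 and 16.2 in the check and at 16.4, 13.2 and 18.8 in the low-light check (log2 difference -0.04, SE 0.17, limma adjusted p = 0.92). REVEILLE 7-like g22364 was scarce, at 0.0689 to 1.43 over all libraries.

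Of 8 pseudo-response regulators, PRR1 rose at low light and none fell, against 10.7% and 4.27% of all loci, with a median of 0.35 for the list and for all loci. Those named PRR37 and PRR73 (6 loci) had no call at low light or with high salt. The one with the smallest p for high salt was PRR37 locus g22157, at 303 ± 152.5 against 142.3 ± 107.4 in the check (SD, n = 3, limma adjusted p = 0.21). Its check libraries stood at 266, 86.2 and 74.6, so replicate 1, lowest for g19999, was highest here. Text matches to a kinase named PRR1 (g132623) and to an isoflavone reductase homolog (g28033) were left out of this list.

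GIGANTEA, a clock protein of the evening in Arabidopsis, had 5 of 5 loci called higher at low light, against 10.7% of all tested loci. With high salt 3 of the 5 were called higher, against 2.98% of all loci, each at a limma adjusted p of 0.045. The median of all loci was 0.29 higher there as deposited. After median-of-ratios scaling 156 of all loci were called higher with high salt, against 613 as deposited. Calls of loci outside the 7, in any list, were not repeated under other settings or with a library left out. Locus g98846 stood at 16.9 ± 1.43 in the check, 38.4 ± 0.414 in the low-light check and 31.0 ± 4.46 with high salt (SD, n = 3, limma adjusted p = 0.0046 and 0.045). LNK1 (g8798), in Arabidopsis a coactivator of REVEILLE 8 type proteins, fell at low light, to 53.7 ± 33.0 against 185.9 ± 18.3 in the check (SD, n = 3, limma adjusted p = 0.0044). With high salt it stood at 100.9 ± 1.41 (SD, n = 3, limma adjusted p = 0.15). The evening complex list had none of 4 loci called by limma at low light or with high salt. It holds a Cryptochrome-2 locus (g19021), matched only because a synonym of that protein contains elf3, and g2220, in which transcripts with a PCL1 hit sit with others that hit a calmodulin-binding protein. The smallest p at low light was that of g19021, at 1.69 (SE 0.53, limma adjusted p = 0.051), and with high salt that of ELF4-LIKE 4 (g24688), at 0.43 (SE 0.23, limma adjusted p = 0.28). Neither of 2 ADAGIO loci, blue-light receptors that target clock proteins for breakdown, was called, and g14342 stood at -0.30 at low light (SE 0.25, limma adjusted p = 0.44).

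Of 10 clock modifier loci 2 rose at low light and none fell, against 10.7% and 4.27% of all loci, with a median of 0.43 against 0.35. Casein kinase II subunit beta-4 (g23850), of a kinase that phosphorylates CCA1 in Arabidopsis, rose to 81.1 ± 5.65 against 29.6 ± 4.46 in the check (SD, n = 3, limma adjusted p = 0.0021). Of 35 tested photoperiod output loci, 4 rose and 3 fell at low light, with a median of 0.16 against 0.35 for all loci. This text-matched list also holds many casein kinase loci, a ubiquitin-conjugating enzyme (g13473) and a chlorophyll synthesis enzyme (g2329). Among those that rose, g13746 and g27335 are casein kinase loci, and g13746 is also counted as a clock modifier that rose. The share that rose, 4 of 35, was near the 10.7% of all loci called higher, and 4.27% were called lower. Cyclic dof factor 2 (g25130), which in Arabidopsis represses flowering genes in the morning, fell to 4.87 ± 0.915 against 25.5 ± 5.51 in the check (SD, n = 3, limma adjusted p = 0.0029). It was also the 1 locus of that list called with high salt (0.963% of all loci were called lower), at 10.01 ± 5.39 (SD, n = 3, limma adjusted p = 0.047). These lists overlap, since g22157, g9834 g13746, g18062 and g24241 are each in more than one.

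**Figure D5:**
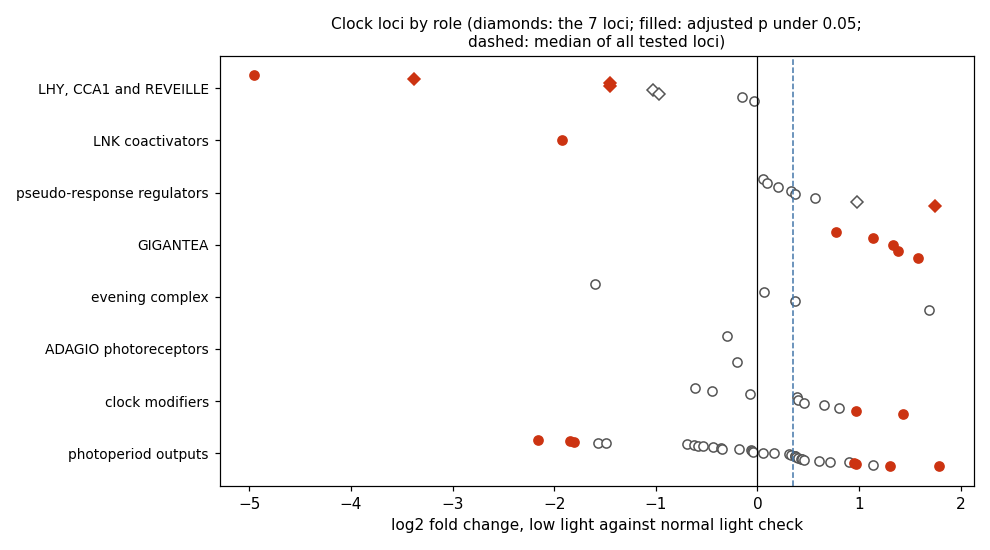
Log2 fold change at low light (horizontal axis) of every tested clock locus by list (vertical axis), with diamonds for the 7 loci, filled symbols for an adjusted p under 0.05 and the median of all tested loci as a dashed line. GIGANTEA loci and PRR1 lie to the right, and g1767, g19999 and LNK1 to the left.

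Loci with the most similar pattern were sought among 6586 described loci with a mean of at least 5, by the root mean square difference of centred log2(value + 1) over the 14 libraries. Nearest to g19999 were DETOXIFICATION 29 (g25541, 0.58 log2 units), NRT1/PTR FAMILY 6.4 (g8007, 0.60) and a glucan endo-1,3-beta-glucosidase (g19734, 0.62). The transporter g8007 averaged 51.8 in the check and 1.97 in the low-light check. The nearest to g99491 was the chloroplast enzyme 4-hydroxy-3-methylbut-2-enyl diphosphate reductase (g15655, 0.22), with 381 and 154 in the same groups. Pairs of S-adenosylmethionine synthase 2 loci (g25207 and g27486, 0.35 and 0.36) were nearest to g98118, and ERI1 exoribonuclease 2 (g84556, 0.23) to g26106. The pseudocount of 1 flattens scarce loci on this scale, so their nearest loci need not change by the same ratio. From the check to the low-light check g26106 went from 1.27 to 0.114 and g84556 from 11.9 to 5.1. For g98118 the means were 2.92 and 0.48, and for g25207 19.4 and 7.68. PRR1 was closest to FCS-Like Zinc finger 10 (g25154, 0.40) and PRR95 to argonaute 1C (g8701, 0.27). Among the 7 loci themselves the 2 PRR loci differed by 0.82, and g26106 and g99491, the closest pair on this scale, by 0.59. The farthest pair was g19999 and PRR1, at 2.02. Locus g16508 spanned less than 1 log2 unit over the group means and was not searched.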

How the data were processed

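One table was analysed, in which the authors deposited an abundance signal for each assembled transcript and library, with no unit named. Bowtie 0.12.2, HISAT2 2.0, StringTie 1.3.0 and a mouse build, mm8, are named without roles, per the submitters' processing notes. The labels' extraction protocol speaks of rice leaves. The table stops at line 65536 and may hold only part of the assembly. Left out were 4 broken lines and 3 loci at its edges (17 transcripts). The remaining 65514 transcripts were summed to 29560 loci. Tests used limma 3.58.1 (R 4.3.3) on log2 of the signal plus 1, for the 20567 loci that reached 1 in 2 or more libraries. All 14 libraries entered 1 model of 5 groups, moderated with a trend and robustly. Tests were 2-sided, p-values were adjusted by Benjamini-Hochberg across tested loci in each comparison, and calls required an adjusted p under 0.05. The model was also run on simulated data with independent noise and large changes, which does not show how it performs on these data. Without counts, precision is known only from replicates. The 7 loci and the lists were chosen with earlier results of these data known. Named loci are the 7, in each list the locus with the smallest p for low light and for high salt, and the 3 nearest in pattern, of which some are given. Others, such as g26667, were chosen after their values were seen. Alternatives were 3 scalings, 2 filters, a pseudocount of 0.1, the compared groups alone, a replicate block, plain moderation, the most abundant transcript, only annotated transcripts (added after seeing the data) and leaving out each library. No sequences were used here. Figures were drawn with matplotlib 3.10.9 and pandas 2.3.3 (Python 3.11.15).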

Additional observations from a re-analysis of the deposited data

How the results depend on the processing

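At low light 4 of the 7 loci were called, and 3 to 5 under the other settings. Leaving out 1 library gave 2 to 5, and 2 without check replicate 1, check replicate 2 or low-light check replicate 2. The other 5 comparisons had 0 calls among the loci tested under every setting. All 7 were tested except with a mean of at least 5, which left 5 (without g26106 and g98118). Replicate numbers showed no clear pairing of the samples: same-numbered libraries correlated at -0.17 to 0.146. The own number gave the highest correlation in 20 of 52 cases. With 2 or 3 libraries per group this cannot exclude a pairing, on which the labels are silent. A replicate block left 3 loci called at low light, without g98118 (limma adjusted p = 0.057). Over all loci, calls at low light were 3074, against 1438 to 3945 loci or 7700 of all tested transcripts under other settings, and 1187 to 3200 with a library left out. For high salt they were 811 (366 to 1279, and 16 to 1116), for low salt 14 (3 to 37, and 2 to 209), for high salt at low light 118 (2 to 259, and 2 to 158), for light among high-salt plants 135 (3 to 323, and 2 to 285) and for the interaction 43 (0 to 132, and 4 to 157). With a pseudocount of 0.1 the mean REVEILLE level minus PRR1 was -4.03 in the low-light check, and minus PRR95 it was -6.1 there and -5.73 with high salt at low light. The sign changed in differences that were not called, and the cause was not tested. In the interaction g98118 became 0.10 and PRR95 0.0545 with median-of-ratios scaling, and g98118 0.45 with a pseudocount of 0.1. For high salt at low light, quantile normalization gave -0.24 for g19999, -0.21 for g26106 and 0.0035 for PRR1, the replicate block -0.0297 for g26106, the main transcript 0.0126 for PRR1, and the annotated transcript -0.0499 for g16508. Transcript i1 of g16508, the more abundant, stood at 0.0834 at low light and 0.13 with low salt, and its annotated transcript at -1.03 for light among high-salt plants. With 1 library left out, these ran across 0: g26106 with high salt (-0.55 to 0.17), g98118 with low salt (-0.36 to 0.10), and for high salt at low light g19999 (-0.0858 to 0.22), g16508 (-0.0131 to 0.94), g26106 (-0.0434 to 0.15) and PRR1 (-0.68 to 0.66). So did g16508 for light among high-salt plants (-0.18 to 0.68) and, in the interaction, g26106 (-0.14 to 0.58), g98118 (-0.49 to 0.26), PRR1 (-1.31 to 0.0385) and PRR95 (-0.45 to 0.0203).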
